A study of Homo sapiens with 12 samples.

Results

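WEE1, PKMYT1, CDC25A, CDC25B, CDC25C, PLK1, AURKA, BORA and MASTL are the kinases, phosphatases and activators that decide whether the mitotic kinase CDK1 is held back or switched on. They were chosen as a list by gene name, under a rule that reads no measured value. The list itself was drawn up with earlier results of these data known. All 9 genes were found in the deposited count tables of both cell lines. The tables hold 44938 genes for 92.1 cells and 42342 for MP38 cells, with 38997 genes in both. WEE1 and PKMYT1 were taken as the 2 inhibitors, and the other 7 genes as activators.

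CDK1 bound to cyclin B drives a cell into mitosis. Through interphase WEE1, a nuclear kinase, and PKMYT1, its relative at the endoplasmic reticulum and Golgi, add inhibitory phosphates to CDK1, and the CDC25 phosphatases take them off. AURKA, helped by its cofactor BORA, activates PLK1, which in turn promotes destruction of WEE1 and activation of CDC25C, while MASTL (Greatwall) restrains the phosphatase PP2A-B55 that would undo CDK1's work. ATR, the kinase that answers stalled replication forks, acts through CHEK1 to keep CDC25 phosphatases in check, so this circuit lies downstream of the drug target.

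Messenger RNA was measured in 92.1 and MP38, established human uveal melanoma cell lines, after 72 hours in VE-822, an ATR inhibitor, or in its solvent DMSO. There were 3 libraries each for 92.1 with VE-822, 92.1 with DMSO, MP38 with VE-822 and MP38 with DMSO, 12 in all, and the labels name no other agent, allele or time. The VE-822 dose is not given in the sources used here; it was set line by line to leave about 40% viable cells at harvest, so that dose and line cannot be told apart, and the VE-822 libraries come from cultures at that viability. The labels name no separate cultures behind the 3 libraries of a group, so p-values speak only to spread among these libraries, which can be technical.

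The genes are given on build GRCh38.p13 as annotated in the deposited tables, and all 9 are protein coding. The inhibitors are WEE1 (ENSG00000166483, chromosome 11, 9573670 to 9593457) and PKMYT1 (ENSG00000127564, chromosome 16, 2968024 to 2980479). The phosphatases are CDC25A (ENSG00000164045, chromosome 3, 48157146 to 48188417), CDC25B (ENSG00000101224, chromosome 20, 3786772 to 3806121) and CDC25C (ENSG00000158402, chromosome 5, 138285269 to 138338355). The kinases and the cofactor upstream of them are PLK1 (ENSG00000166851, chromosome 16, 23677656 to 23690367), AURKA (ENSG00000087586, chromosome 20, 56369389 to 56392337), BORA (ENSG00000136122, chromosome 13, 72727749 to 72756198) and MASTL (ENSG00000120539, chromosome 10, 27154824 to 27187953). PKMYT1, CDC25C, BORA and MASTL overlap other expressed genes (KREMEN2 and PAQR4 for PKMYT1, FAM53C for CDC25C, DIS3 for BORA, ACBD5 and YME1L1 for MASTL), and whether reads were counted by strand is not given in the sources used here, so their counts are less certain. WEE1, CDC25B and AURKA have no such overlap. The AURKA pseudogene AURKAP1 held 9 to 46 counts a library, against 1726 to 7312 for AURKA itself.

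Promoters of 5 activators are shown because the data compare genes whose transcription is tied to different phases of the cycle. Genes that peak in G2 and mitosis often carry a CHR element (TTTGAA, or the variant TTCGAA) with CCAAT boxes upstream of it, and genes that peak at the G1/S border often carry an E2F site. The letters were searched on both strands in RefSeq windows of build GRCh38.p14 that run 250 bases before to 50 after each listed start; 6 of the 9 genes matched an entry, and WEE1, PKMYT1 and AURKA did not. Each sequence below runs from 220 bases before to 30 after the start, 5′ to 3′ on the strand of the gene, and capitals mark the CHR element and its variant, the CCAAT box (read as ATTGG where it lies on the other strand) and the E2F form TTTGGCGC.
PLK1, chr16:23678669-23678918, plus strand: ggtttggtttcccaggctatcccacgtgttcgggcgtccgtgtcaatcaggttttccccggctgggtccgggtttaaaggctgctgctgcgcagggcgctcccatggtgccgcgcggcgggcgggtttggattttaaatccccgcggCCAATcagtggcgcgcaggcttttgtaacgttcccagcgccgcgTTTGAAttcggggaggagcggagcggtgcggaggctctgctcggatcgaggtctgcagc
CDC25C, chr5:138331775-138332024, minus strand: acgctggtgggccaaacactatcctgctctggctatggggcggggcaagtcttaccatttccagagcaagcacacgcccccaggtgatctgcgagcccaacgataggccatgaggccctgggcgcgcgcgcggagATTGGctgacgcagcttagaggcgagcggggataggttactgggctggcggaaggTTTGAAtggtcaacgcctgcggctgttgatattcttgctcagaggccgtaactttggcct
BORA, chr13:72727703-72727952, plus strand: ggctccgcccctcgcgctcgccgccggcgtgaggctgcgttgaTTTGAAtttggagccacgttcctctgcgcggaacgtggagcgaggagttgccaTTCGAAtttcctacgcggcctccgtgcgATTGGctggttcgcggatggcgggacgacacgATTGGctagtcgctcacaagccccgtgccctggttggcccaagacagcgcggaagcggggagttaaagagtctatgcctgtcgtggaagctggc
MASTL, chr10:27155132-27155381, plus strand: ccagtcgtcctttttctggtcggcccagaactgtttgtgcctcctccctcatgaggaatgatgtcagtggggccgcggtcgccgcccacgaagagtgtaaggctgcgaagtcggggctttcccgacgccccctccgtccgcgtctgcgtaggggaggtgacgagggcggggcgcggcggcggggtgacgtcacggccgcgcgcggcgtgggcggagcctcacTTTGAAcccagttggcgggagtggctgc
CDC25A, chr3:48188388-48188637, minus strand: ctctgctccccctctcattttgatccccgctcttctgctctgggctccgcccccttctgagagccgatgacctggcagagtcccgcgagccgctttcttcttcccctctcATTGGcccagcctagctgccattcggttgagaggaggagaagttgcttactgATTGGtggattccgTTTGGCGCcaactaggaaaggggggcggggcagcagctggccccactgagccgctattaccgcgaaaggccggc
PLK1 had TTTGAA 29 bases before its start and CCAAT 73 bases before it. CDC25C has 4 listed starts, of which 2 had TTTGAA and 2 had CCAAT; the start shown, chosen as the one with TTTGAA upstream of it, had that element 30 bases before it and CCAAT on the other strand 85 bases before it. BORA had TTTGAA 177 bases before the start, TTCGAA 124 bases before it, and CCAAT on the other strand 96 and 64 bases before it. MASTL had TTTGAA 3 bases after its start, no CCAAT, and a further TTTGAA on the other strand 248 bases before the start, outside the stretch shown. CDC25A had neither form of the CHR element; it had CCAAT on the other strand 110 and 58 bases before the start, and TTTGGCGC 44 bases before it. Of the 4 listed CDC25B starts, 1 had TTCGAA, 38 bases before it, and 2 had CCAAT. Among all 35116 RefSeq windows of 300 bases, 15.2% held TTTGAA, 1.45% the variant TTCGAA, which reads the same on both strands, 34.6% the CCAAT box, and 3.31% any of the E2F forms TTTCCCGC, TTTCGCGC, TTTGCCGC and TTTGGCGC. These matches are letters in a window, and binding was not measured.

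Library totals were 113370680 to 137664800 counts with VE-822 and 112374503 to 123705501 with DMSO in 92.1, and 54415628 to 60891725 with VE-822 and 61045071 to 63638976 with DMSO in MP38. All 7 melanocyte lineage markers, such as PMEL, were detected in every group. They summed to 19644 to 19918 CPM (each library's counts scaled to the same total, with TMM factors) with VE-822 and 18824 to 19035 CPM with DMSO in 92.1, and to 5452 to 5470 CPM with VE-822 and 4423 to 4595 CPM with DMSO in MP38. Single lineage markers did not all follow these sums. PMEL, MLANA and TYRP1 were higher with VE-822 in every library of both lines. MITF and DCT were lower with VE-822 in both lines, and SOX10 and TYR were lower in MP38 only. Leukocyte, endothelial, fibroblast and keratinocyte markers, 14 genes in all, summed per list to at most 5.85 CPM in any library; the fibroblast list was at 5.20 to 5.85 CPM with VE-822 against 2.67 to 3.71 CPM with DMSO in 92.1, and at 1.38 to 1.91 CPM with VE-822 against 0.253 to 0.338 CPM with DMSO in MP38. At most 1 gene of a list was at 0 in a group, and the part of these markers in the results was not tested. One library stood apart, the third DMSO library of 92.1, which lay farthest out on a second principal component with 14.04% of that line's variance. Without it, 55.7% of the genes tested in 92.1 were called changed, against 39.9% with it. All 9 genes remained called lower in 92.1 without it, with log2 fold changes of -2.37 to -1.19, against -2.47 to -1.19 with it. Among the DMSO libraries of 92.1 it had the lowest CPM of WEE1, PKMYT1, CDC25A and MASTL. It had the highest CPM of CDC25B, CDC25C, PLK1 and AURKA. In MP38 the third VE-822 library lay farthest out on the second component, which held 5.27% of that line's variance.

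VE-822 moved this circuit in opposite directions in the lines. In 92.1 all 9 transcripts, inhibitors and activators alike, fell to between 0.181 and 0.440 of their DMSO level. In MP38 8 of the 9 rose, by 1.12-fold for MASTL to 2.97-fold for PLK1, and CDC25A, at 1.10-fold, did not pass the test. Calls are by edgeR's quasi-likelihood test at a Benjamini-Hochberg adjusted p under 0.05. The 9 called lower in 92.1 (9 of 9) stand beside 19.6% of all 22943 genes tested there that were called lower, 20.3% called higher and 39.9% called either way. The 8 called higher in MP38 (8 of 9) stand beside 26.9% of 21415 genes called higher, 25.4% called lower and 52.3% called either way. The list was drawn up with earlier results of these data known, so these counts are descriptions. In CPM the VE-822 and DMSO libraries of each line did not overlap for any of the 9. The same was so for 52.8% of all genes in 92.1 and 58.7% in MP38. In the deposited FPKM (counts per feature length and library total) the groups of MP38 overlapped for CDC25A and MASTL. The lowest VE-822 and highest DMSO libraries there were 3.624 and 3.818 for CDC25A, and 4.444 and 4.519 for MASTL. RNA was taken from whole cultures, so fewer cells in a phase of the cycle and less of a transcript per cell cannot be told apart.

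**Figure D1:**
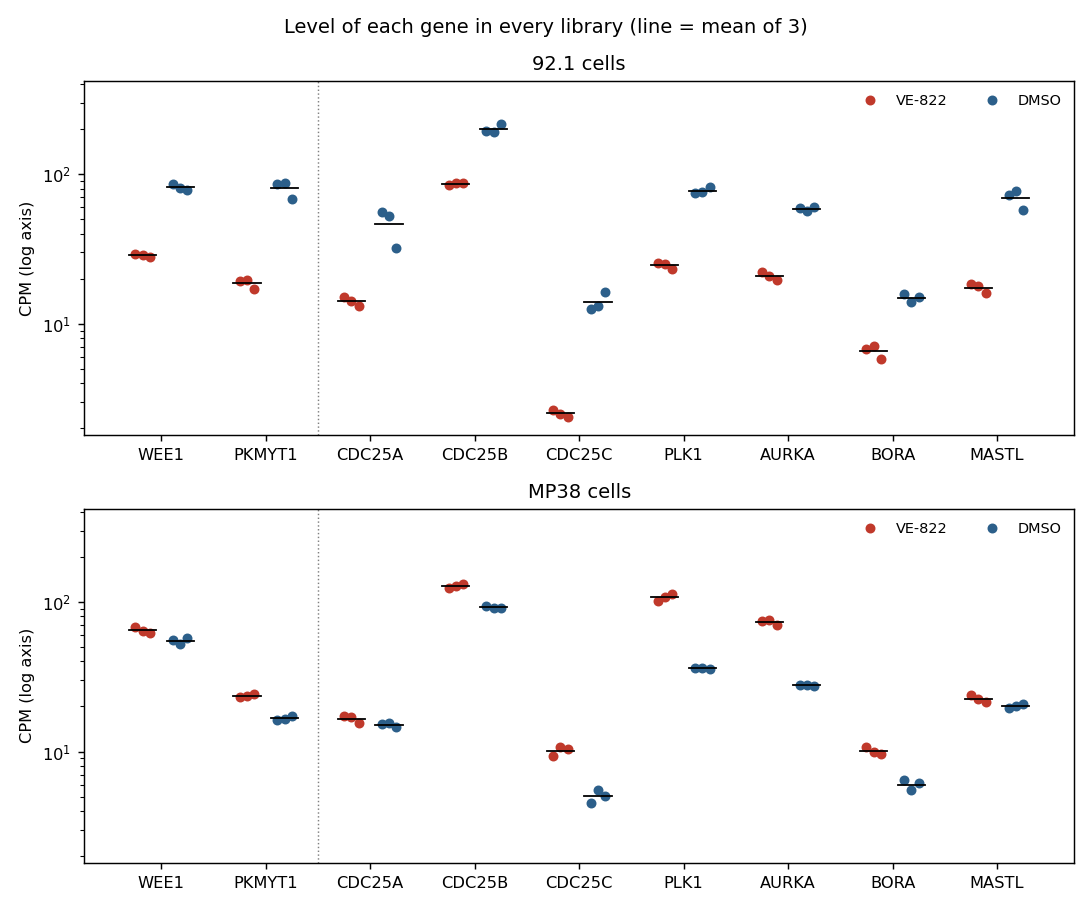
Level of each gene in every library, in CPM on a log axis, for 92.1 (upper panel) and MP38 (lower panel). Red points are VE-822 libraries, blue points DMSO libraries and black lines the mean of 3; inhibitors stand left of the dotted line. Red lies below blue for every gene in 92.1 and above blue for every gene in MP38, with the gap in MP38 widest for PLK1 and AURKA.

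Of the inhibitors, WEE1 had 29.4, 28.7 and 27.9 CPM in the VE-822 libraries of 92.1, against 85.4, 81.0 and 78.5 CPM in the DMSO libraries. In MP38 WEE1 had 67.6, 63.8 and 62.0 CPM with VE-822, against 55.5, 52.7 and 57.3 CPM with DMSO. The VE-822 libraries thus all lay far below the controls in 92.1 and slightly above them in MP38. The log2 fold change of WEE1 was -1.51 ± 0.053 (SE; adjusted p = 6.32e-07, edgeR) in 92.1 and 0.22 ± 0.043 (adjusted p = 0.000191, edgeR) in MP38.

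PKMYT1, the membrane-bound inhibitor that phosphorylates both inhibitory sites of CDK1, had a deeper fall than WEE1 in 92.1. Its VE-822 libraries there held 19.3, 19.6 and 17.0 CPM, against 86.0, 87.9 and 68.7 CPM with DMSO. MP38 libraries held 23.1, 23.5 and 24.2 CPM with VE-822, against 16.3, 16.5 and 17.2 CPM with DMSO. The low DMSO value in 92.1 is that of the library that stood apart, and it still exceeded every VE-822 library. PKMYT1 changed by -2.12 ± 0.10 on the log2 scale in 92.1 (adjusted p = 1.69e-06, edgeR), or -2.25 without that library, and by 0.50 ± 0.050 in MP38 (adjusted p = 5.08e-08, edgeR). Its fold change there, 1.41, exceeded the 1.17 of WEE1; the difference between these genes was not tested.

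The 3 CDC25 phosphatases shared a direction and differed in size. CDC25C, which acts at the onset of mitosis, had the deepest fall of the 9 genes in 92.1 and rose 2.02-fold in MP38. It stood at 2.66, 2.51 and 2.40 CPM with VE-822 in 92.1, against 12.5, 13.1 and 16.2 CPM with DMSO. In MP38 it stood at 9.33, 10.7 and 10.4 CPM with VE-822, against 4.52, 5.54 and 5.06 CPM with DMSO. Counts were low for this gene, 283 to 369 with VE-822 in 92.1 and 286 to 344 with DMSO in MP38, yet the groups stayed apart in each line. Its log2 fold change was -2.47 ± 0.11 in 92.1 (adjusted p = 1.46e-06, edgeR) and 1.01 ± 0.086 in MP38 (adjusted p = 3.73e-09, edgeR). On the log2(FPKM + 1) scale, where the added 1 weighs on so low a gene, the same values were -1.51 and 0.66.

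CDC25B is the phosphatase that starts CDK1 activation at the centrosome. In 92.1 it had 85.4, 87.1 and 87.5 CPM with VE-822, against 196, 190 and 215 CPM with DMSO. In MP38 it had 123, 128 and 133 CPM with VE-822, against 94.5, 90.8 and 91.8 CPM with DMSO. Its replicates were tight, and the shifts were moderate, -1.21 ± 0.056 in 92.1 (adjusted p = 1.46e-06, edgeR) and 0.47 ± 0.039 in MP38 (adjusted p = 2.36e-09, edgeR) on the log2 scale.

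CDC25A, which also acts on CDK2 at the entry to S phase, was the 1 gene of the 9 without a call in MP38. In 92.1 it had 15.1, 14.2 and 13.2 CPM with VE-822, against 55.7, 52.4 and 32.3 CPM with DMSO. The library that stood apart was again the low control, and CDC25A had the widest error of the 9 genes there, at -1.72 ± 0.18 (adjusted p = 0.000142, edgeR), or -1.96 without that library. Its MP38 libraries read 17.2, 17.0 and 15.6 CPM with VE-822, against 15.3, 15.5 and 14.5 CPM with DMSO. The groups nearly touched, and the log2 fold change of 0.14 had a 95% interval of 0.02 to 0.26 and an adjusted p of 0.0536 (edgeR). That value lay at the threshold: it was called with RLE factors in place of TMM (adjusted p = 0.0496) and without the third VE-822 library (0.18, adjusted p = 0.0132).

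PLK1 and AURKA, the kinase pair whose activation commits a cell to mitosis, fell together in 92.1 and had the largest increases of the 9 genes in MP38. In 92.1 PLK1 had 25.5, 24.9 and 23.3 CPM with VE-822, against 74.7, 75.6 and 82.0 CPM with DMSO. AURKA had 22.2, 21.0 and 19.5 CPM with VE-822 there, against 59.1, 56.7 and 60.8 CPM with DMSO. No library crossed over, and the log2 fold changes were -1.66 ± 0.060 for PLK1 (adjusted p = 6.40e-07, edgeR) and -1.49 ± 0.063 for AURKA (adjusted p = 1.06e-06, edgeR).

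In MP38 PLK1 had 102, 108 and 113 CPM with VE-822, against 36.1, 36.4 and 35.7 CPM with DMSO. AURKA had 74.3, 75.7 and 70.1 CPM with VE-822 in that line, against 27.9, 27.8 and 27.5 CPM with DMSO. Each VE-822 library of MP38 held well over the amount in any control, and the log2 fold changes were 1.57 ± 0.043 for PLK1 (adjusted p = 1.35e-16, edgeR) and 1.40 ± 0.042 for AURKA (adjusted p = 5.73e-16, edgeR).

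BORA, the cofactor through which AURKA reaches PLK1, had smaller fold changes than either kinase; the differences between these genes were not tested. In 92.1 it had 6.77, 7.10 and 5.83 CPM with VE-822, against 15.7, 14.04 and 15.1 CPM with DMSO. In MP38 it had 10.7, 9.92 and 9.60 CPM with VE-822, against 6.43, 5.51 and 6.11 CPM with DMSO. Its log2 fold changes of -1.19 ± 0.089 in 92.1 (adjusted p = 2.03e-05, edgeR) and 0.74 ± 0.078 in MP38 (adjusted p = 9.30e-08, edgeR) rest on 342 to 1817 counts a library and on a gene that overlaps DIS3.

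MASTL, the kinase that holds PP2A-B55 in check, fell steeply in 92.1 and changed little in MP38. In 92.1 it had 18.5, 17.9 and 16.0 CPM with VE-822, against 72.6, 76.9 and 58.1 CPM with DMSO. In MP38 it had 23.9, 22.4 and 21.5 CPM with VE-822, against 19.6, 20.0 and 20.8 CPM with DMSO. It was thus among the 3 deepest falls in 92.1, at -1.99 ± 0.11 (adjusted p = 3.05e-06, edgeR), or -2.13 without the library that stood apart, and barely higher in MP38, at 0.17 ± 0.053 (adjusted p = 0.0119, edgeR). The call in MP38 did not last in 5 of the 14 alternatives: it was lost with library size as the only scaling (adjusted p = 0.0695), without the first VE-822 library (0.0661), without the first DMSO library (0.0621), on log2(FPKM + 1) with limma (0.137) and in the joint fit of both lines (0.152).

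The lines were next compared directly, as the 92.1 response minus the MP38 response in a joint fit of all 12 libraries with its own interaction test. All 9 genes responded lower in 92.1, beside 18.8% of 24958 genes tested that did so and 40.9% called either way. The gap was widest for CDC25C (-3.45 ± 0.15), PLK1 (-3.20 ± 0.076) and AURKA (-2.87 ± 0.077) on the log2 scale, and narrowest for CDC25B (-1.65 ± 0.070) and WEE1 (-1.71 ± 0.074). PKMYT1 (-2.59), MASTL (-2.12), BORA (-1.90) and CDC25A (-1.83) lay between them. Adjusted p-values ran from 3.60e-13 for PLK1 to 3.08e-06 for CDC25A (edgeR). Because VE-822 doses were set for each line, a difference in dose and a difference between lines cannot be told apart.

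**Figure D2:**
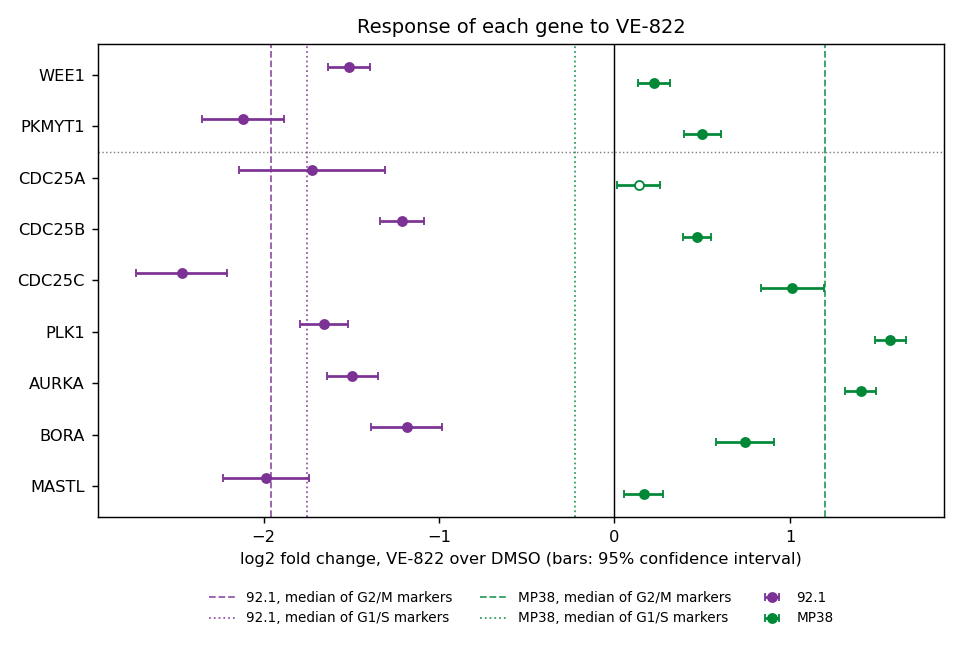
Log2 fold change of each gene, VE-822 over DMSO, with its 95% confidence interval, in 92.1 (purple) and MP38 (green); the open point, CDC25A in MP38, did not pass the test. Dashed and dotted vertical lines give the median of 20 G2/M and 20 G1/S marker genes in each line. In 92.1 the 9 genes lie between -2.47 and -1.19, near the marker medians of -1.96 and -1.75; in MP38 they spread from 0.14 to 1.57, all above the G1/S median of -0.22, with PLK1 and AURKA also above the G2/M median of 1.20.

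The untreated lines also differed, and the order turned round with the drug. With DMSO the 92.1 libraries held more of each of the 9 transcripts than the MP38 libraries, for instance 80.9 ± 10.6 against 16.7 ± 0.464 CPM for PKMYT1, and 69.2 ± 9.83 against 20.1 ± 0.645 CPM for MASTL (SD, n = 3 each). With VE-822 the 92.1 libraries held less of each, for instance 24.6 ± 1.12 against 107 ± 5.54 CPM for PLK1, and 2.52 ± 0.131 against 10.2 ± 0.739 CPM for CDC25C. The closest pair with VE-822 was CDC25A, at 14.2 ± 0.970 CPM in 92.1 and 16.6 ± 0.871 CPM in MP38. No library of one line reached the other there in CPM. In FPKM they did cross, with the first VE-822 library of 92.1 at 3.68 and the third of MP38 at 3.624. These levels come from tables scaled separately and were not tested between lines.

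Per unit of transcript length (FPKM, as deposited), CDC25B was the highest of the 9 in every group, followed by AURKA and PLK1. It averaged 22.7 ± 0.654 FPKM with VE-822 and 50.1 ± 3.14 FPKM with DMSO in 92.1, and 32.3 ± 0.651 FPKM with VE-822 and 24.0 ± 0.446 FPKM with DMSO in MP38 (SD, n = 3). CDC25C was the lowest in every group, at 0.776 ± 0.0277 FPKM with VE-822 and 4.09 ± 0.580 FPKM with DMSO in 92.1, and 3.01 ± 0.206 FPKM with VE-822 and 1.53 ± 0.162 FPKM with DMSO in MP38. BORA ranked next to CDC25C, and those neighbours overlapped in 92.1 with DMSO and in MP38 with VE-822. The middle ranks could not be told apart everywhere: neighbours overlapped in the run MASTL, PKMYT1, CDC25A in 92.1 with VE-822, in the run PLK1, PKMYT1, MASTL, CDC25A, WEE1 in 92.1 with DMSO, and for MASTL and PKMYT1 in MP38 with VE-822. WEE1 held the fourth rank in both MP38 groups and the seventh in both 92.1 groups.

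Setting inhibitors against activators within a library removes the scaling between libraries. In 92.1 both inhibitors fell along with the activators, and the ratios between them had no common direction. WEE1 to PLK1, as a ratio of FPKM, was 0.600 ± 0.0135 with VE-822 and 0.544 ± 0.0483 with DMSO (SD, n = 3), with the lowest VE-822 library at 0.592 and the highest DMSO library at 0.588. PKMYT1 to PLK1 was lower with VE-822, at 0.724 ± 0.0259 against 1.01 ± 0.177 with DMSO. Against CDC25C both inhibitors stood higher with VE-822. WEE1 to CDC25C was 4.09 ± 0.108 with VE-822 and 2.14 ± 0.368 with DMSO, and PKMYT1 to CDC25C 4.94 ± 0.240 with VE-822 and 3.98 ± 0.994 with DMSO. The groups did not overlap in these 4 ratios, and the third DMSO library had the lowest value among the controls in each.

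In MP38 both inhibitors had smaller increases than PLK1, AURKA, BORA and CDC25C, and larger ones than CDC25A and MASTL. CDC25B, at 0.47 on the log2 scale, lay between WEE1 (0.22) and PKMYT1 (0.50). These differences between genes were not tested. The same 4 ratios, which take only PLK1 and CDC25C from the activators, were all lower with VE-822. The ratio of WEE1 to PLK1 was 0.310 ± 0.0299 with VE-822 and 0.787 ± 0.0404 with DMSO, and that of PKMYT1 to PLK1 was 0.211 ± 0.00612 with VE-822 and 0.443 ± 0.0158 with DMSO. WEE1 to CDC25C was 2.30 ± 0.269 with VE-822 and 3.98 ± 0.509 with DMSO, and PKMYT1 to CDC25C 1.56 ± 0.0944 with VE-822 and 2.23 ± 0.213 with DMSO. The groups of MP38 overlapped in none of these 4 ratios. WEE1 to CDC25A did overlap, in 92.1 at 0.908 ± 0.0392 with VE-822 and 0.823 ± 0.230 with DMSO, and in MP38 at 1.74 ± 0.0528 with VE-822 and 1.64 ± 0.127 with DMSO. Between the inhibitors, PKMYT1 to WEE1 was 1.21 ± 0.0677 with VE-822 and 1.84 ± 0.198 with DMSO in 92.1, but 0.682 ± 0.0450 with VE-822 and 0.563 ± 0.0193 with DMSO in MP38.

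Within the activators the mean ratio of MASTL to PLK1 was lower with VE-822 in both lines. In 92.1 it was 0.725 ± 0.0208 with VE-822 and 0.918 ± 0.1698 with DMSO, and the third DMSO library, at 0.724, fell inside the VE-822 range. In MP38 it was 0.216 ± 0.0227 with VE-822 and 0.571 ± 0.0226 with DMSO, where the groups were far apart. BORA to PLK1 was 0.398 ± 0.0258 with VE-822 and 0.289 ± 0.0219 with DMSO in 92.1, and 0.141 ± 0.0154 with VE-822 and 0.249 ± 0.0206 with DMSO in MP38, so the cofactor stood higher against its kinase in 92.1 and lower in MP38, with no overlap in either line.

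**Figure D3:**
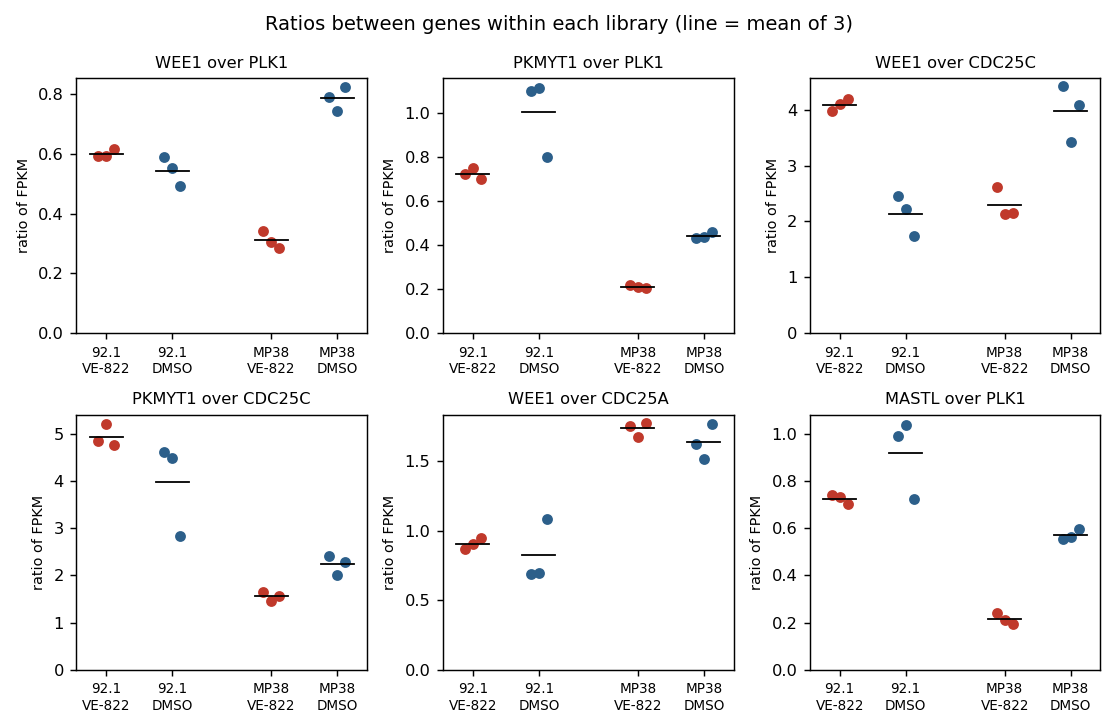
Ratios of FPKM between pairs of genes within each library (vertical axes, no unit), for 92.1 with VE-822 and DMSO and MP38 with VE-822 and DMSO; red points are VE-822 libraries, blue points DMSO libraries and lines the mean of 3. The mean ratio of WEE1 to PLK1 with VE-822 is 0.600, against 0.544 with DMSO, in 92.1, and 0.310, against 0.787 with DMSO, in MP38; the third DMSO library of 92.1 is the lone blue point off its pair in several panels.

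A single index, the mean log2 CPM of the 2 inhibitors minus that of the 7 activators, was lower with VE-822 in both lines. It was 0.61 ± 0.015 with VE-822 and 0.75 ± 0.091 with DMSO in 92.1, and 0.26 ± 0.025 with VE-822 and 0.69 ± 0.048 with DMSO in MP38 (SD, n = 3). The difference, VE-822 minus DMSO, was -0.14 in 92.1 and -0.42 in MP38, and is given with no test because the genes were chosen as a set. With WEE1 as the only inhibitor it was 0.16 in 92.1 and -0.56 in MP38, so its sign in 92.1 depends on which inhibitor is taken. With the activators' median change in place of their mean, an alternative chosen after seeing the data, it was -0.16 in 92.1 and -0.38 in MP38. With the median of the activators' levels it was 0.20 in MP38, where the middle activator is MASTL in every library and the index sets the inhibitors against that 1 gene.

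The rest of the mitotic entry pathway, 69 genes in 8 lists, mostly moved in the direction of the 9 genes, with smaller medians. In 92.1, 44 of 65 tested were called lower, 5 higher and 16 neither, with a median log2 fold change of -0.37, against -1.66 for the 9 genes and 0.03 for all genes. In MP38, 39 of 67 were called higher, 12 lower and 16 neither, with a median of 0.25, against 0.50 for the 9 genes and -0.01 for all genes. Of all genes tested, 19.6% were called lower and 20.3% higher in 92.1. The shares in MP38 were 26.9% higher and 25.4% lower. These shares stand beside the counts of every list below, and a count near them is no result about that list.

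The CDK1 core complex, the target of the circuit, moved uniformly in MP38 and less so in 92.1. The list of 9 genes for it also holds the subunits of the separate CDK-activating kinase. In 92.1, 7 of the 9 listed genes were lower and none higher (median -1.43), and in MP38 all 9 were higher (median 0.93). The genes not called in 92.1 were among the subunits of the activating kinase. CDK1 itself had 53.5, 50.5 and 45.1 CPM with VE-822 in 92.1, against 189, 187 and 168 CPM with DMSO. In MP38 it had 77.8, 77.2 and 76.3 CPM with VE-822, against 27.3, 30.2 and 29.9 CPM with DMSO. The kinase thus moved with the genes that control it, by -1.87 ± 0.076 in 92.1 (adjusted p = 9.14e-07, edgeR) and 1.40 ± 0.044 in MP38 (adjusted p = 8.86e-16, edgeR) on the log2 scale. CCNB1 and CCNB2, its cyclin B partners, changed by -1.43 ± 0.055 and -1.76 ± 0.080 in 92.1 and by 1.32 ± 0.041 and 1.37 ± 0.042 in MP38, and CKS2, a small subunit of the complex, by -1.04 ± 0.047 in 92.1 and 1.66 ± 0.049 in MP38.

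ENSA and ARPP19, the substrates through which MASTL inhibits PP2A-B55, were called lower in 92.1, at -0.18 ± 0.046 (adjusted p = 0.0146, edgeR) and -0.21 ± 0.052 (adjusted p = 0.0113, edgeR), and higher in MP38, at 0.55 ± 0.039 and 0.26 ± 0.038. ENSA had 175, 163 and 166 CPM with VE-822 in 92.1, against 188, 190 and 192 CPM with DMSO. The calls in 92.1 were near the threshold: with library size as the only scaling both were lost (adjusted p = 0.0696 for ENSA and 0.0552 for ARPP19), and ENSA was not called without the second or the third VE-822 library (0.0882 and 0.0564). Of this list of 8, 4 of 6 tested were lower in 92.1 and none higher, and 3 of 7 were higher in MP38 and 1 lower, with medians of -0.19 and 0.08. PPP2CA, the catalytic subunit of PP2A, changed by -0.37 ± 0.044 in 92.1 and 0.21 ± 0.036 in MP38. The gene lower in MP38 was PPP2R2B, a B55 subunit, at -1.35 ± 0.091, which was too low in 92.1 to be tested in that line alone.

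Partners of AURKA and PLK1 divided. Of 8 tested, 6 were lower and none higher in 92.1 (median -1.31), and 5 were higher and 2 lower in MP38 (median 0.65). TPX2, which activates AURKA on the spindle, had 58.6, 56.2 and 49.8 CPM with VE-822 in 92.1, against 183, 177 and 187 CPM with DMSO. In MP38 TPX2 had 292, 290 and 311 CPM with VE-822, against 106, 106 and 103 CPM with DMSO. Its shifts of -1.73 ± 0.067 in 92.1 and 1.51 ± 0.039 in MP38 resembled those of PLK1 and AURKA in size, as did those of KIF20A, a kinesin that docks PLK1 late in mitosis, at -1.91 ± 0.067 in 92.1 and 1.78 ± 0.046 in MP38.

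Relatives of the 9 genes did not all follow them. PLK4, the kinase of centriole duplication, and AURKB, of the chromosomal passenger complex, were lower in 92.1 (-2.39 ± 0.11 and -2.29 ± 0.095) and higher in MP38 (1.04 ± 0.10 and 1.24 ± 0.043). PLK3, a stress-responsive relative of PLK1, was higher in both lines. It had 19.8, 19.0 and 20.7 CPM with VE-822 in 92.1, against 6.87, 6.74 and 5.97 CPM with DMSO, a log2 change of 1.60 ± 0.076 (adjusted p = 1.62e-06, edgeR), and it changed by 0.72 ± 0.068 in MP38. PLK2, another stress-responsive relative, ran opposite to PLK1 in each line. It had 56.3, 56.0 and 57.4 CPM with VE-822 in 92.1, against 37.9, 38.6 and 36.5 CPM with DMSO, and 121, 122 and 125 CPM with VE-822 in MP38, against 209, 204 and 217 CPM with DMSO. The changes of PLK2 were 0.59 ± 0.048 in 92.1 (adjusted p = 3.35e-05, edgeR) and -0.77 ± 0.038 in MP38 (adjusted p = 7.18e-13, edgeR). In all, 4 of 6 relatives tested were higher and 2 lower in 92.1, and 3 of 7 were higher and 1 lower in MP38. Besides PLK2 and PLK3, the relatives called higher in 92.1 were near the floor, with group means of 0.256 to 1.00 CPM there.

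Among the checkpoint kinases and their partners above CDC25, 5 of 7 were lower and none higher in 92.1 (median -0.93), and 3 were higher and 2 lower in MP38 (median 0.11). ATR, the drug target, differed little: its log2 change was -0.06 ± 0.057 in 92.1 (adjusted p = 0.421, edgeR) and -0.29 ± 0.043 in MP38 (adjusted p = 8.76e-06, edgeR). CHEK1, the kinase that ATR activates and that phosphorylates CDC25A and CDC25C, changed by -1.87 ± 0.10 in 92.1 and 0.36 ± 0.054 in MP38. TOPBP1, an activator of ATR, changed by -1.24 ± 0.067 in 92.1 and was not called in MP38, at -0.07 ± 0.043 (adjusted p = 0.188, edgeR).

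The 14-3-3 proteins, which bind phosphorylated CDC25 and WEE1, were lower for 3 of 6 in 92.1 (median -0.26) and higher for 5 of 6 in MP38 (median 0.17), among them YWHAZ at -0.37 ± 0.047 in 92.1 and 0.66 ± 0.038 in MP38. Ubiquitin ligases that destroy members of the circuit were lower for 5 of 8 in 92.1 (median -0.31), and higher for 5 and lower for 2 of 8 in MP38 (median 0.31). CDC20, the mitotic activator of the anaphase-promoting complex, changed by -1.51 ± 0.084 in 92.1 and 1.16 ± 0.043 in MP38, and CCNF, the F-box protein cyclin F, by -1.48 ± 0.051 and 0.64 ± 0.053. BTRC, the F-box protein that recognises phosphorylated WEE1, BORA and CDC25A, was not called in 92.1 (-0.12 ± 0.056, adjusted p = 0.114, edgeR), was called lower without the third DMSO library (-0.17, adjusted p = 0.00123), and fell by 0.42 on the log2 scale in MP38 (SE 0.047).

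Regulators of G2/M transcription split into several patterns, with 12 of 15 lower and 1 higher in 92.1 (median -0.50), and 6 higher and 4 lower in MP38 (median 0.03). FOXM1 and MYBL2, activators of late cell cycle genes, followed the 9 genes. FOXM1 had 31.8, 30.5 and 26.7 CPM with VE-822 in 92.1, against 121, 120 and 91.1 CPM with DMSO, and 40.2, 39.9 and 37.5 CPM with VE-822 in MP38, against 24.0, 22.5 and 23.7 CPM with DMSO. FOXM1 changed by -1.90 ± 0.12 in 92.1 and 0.74 ± 0.047 in MP38, and MYBL2 by -2.08 ± 0.14 and 0.97 ± 0.039. LIN54, the DNA-binding subunit that reads the CHR element, changed by -1.03 ± 0.054 in 92.1 and 0.30 ± 0.057 in MP38, whereas RBL1 (p107) fell in both, by 1.77 on the log2 scale in 92.1 and by 0.34 in MP38.

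CDKN1A, the p21 inhibitor of cyclin-dependent kinases, was the 1 gene of that list higher in 92.1 and rose in both lines. It had 487, 475 and 572 CPM with VE-822 in 92.1, against 19.7, 19.6 and 15.8 CPM with DMSO. In MP38 it had 39.3, 40.3 and 52.6 CPM with VE-822, against 10.5, 11.04 and 9.57 CPM with DMSO. The VE-822 libraries of 92.1 stood far above all others, and the log2 fold changes were 4.80 ± 0.12 in 92.1 (adjusted p = 4.19e-07, edgeR) and 2.09 ± 0.088 in MP38 (adjusted p = 7.53e-14, edgeR).

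**Figure D4:**
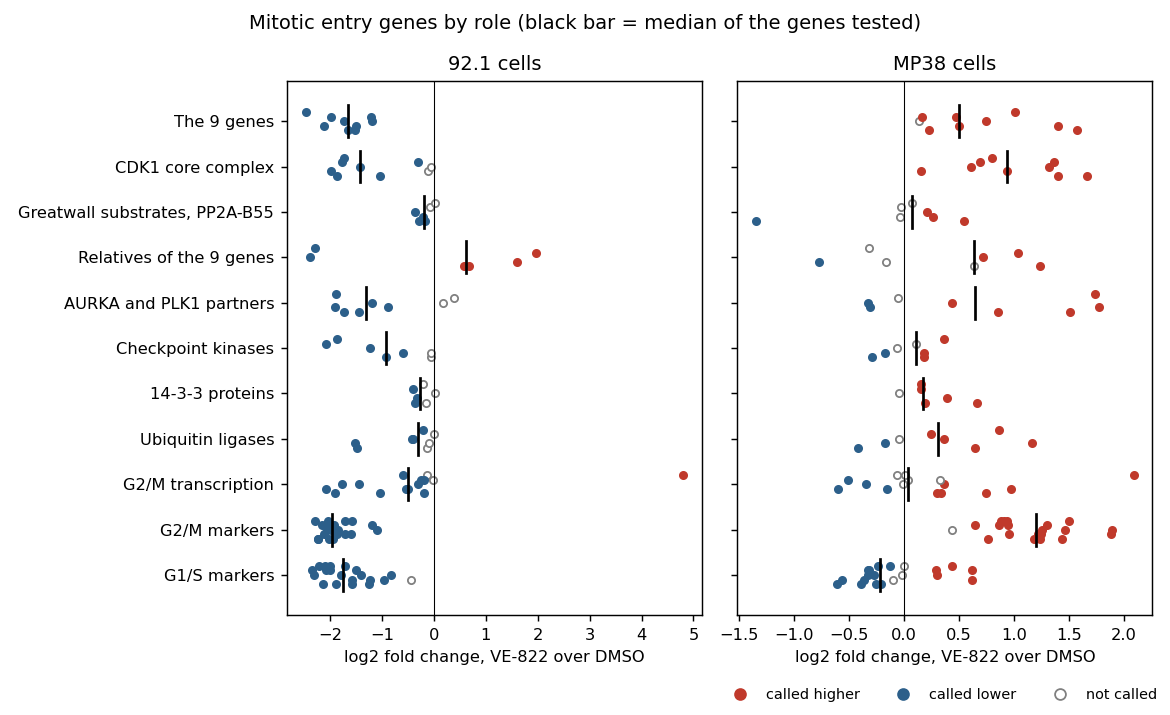
Log2 fold change (VE-822 over DMSO, horizontal axis) of every gene tested in the 9 mitotic entry genes, 8 pathway lists and 2 lists of phase markers, in 92.1 (left) and MP38 (right); red is called higher, blue called lower, open not called, and the black bar the median. The 9 genes have medians of -1.66 in 92.1 and 0.50 in MP38; the point at 4.80 in 92.1 is CDKN1A. The horizontal axes differ between panels.

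Markers of cycle phase moved beside these genes. In 92.1 all 20 G2/M markers were called lower (median -1.96), as were 19 of 20 G1/S markers (median -1.75). In MP38, 19 of 20 G2/M markers were called higher and none lower (median 1.20), while of the G1/S markers 5 were higher and 12 lower (median -0.22). MKI67, a marker of cycling cells, changed by -2.23 ± 0.10 in 92.1 and 1.18 ± 0.037 in MP38, and CDT1, a licensing factor of replication, by -2.22 ± 0.074 and -0.24 ± 0.050. The part of the phase distribution in the changes of the 9 genes was not tested.

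After each line's mean was taken out, the 9 genes were closely correlated in log2(CPM + 1) across the 12 libraries, which share the treatment, so these correlations are descriptions. PLK1 and AURKA were nearest to each other (r = 0.997), and their closest partners among 10190 genes were KIF20A and TPX2 for PLK1 (0.998 each) and CENPE and KIF20A for AURKA (0.998 each). WEE1 ran with MASTL (r = 0.991) and PKMYT1 (0.990) rather than with PLK1 (0.810), and its closest partners were CBX5 (0.999) and TICRR (0.997). PKMYT1 was closest to CDCA5 and MDC1 (0.999 each) and MASTL to EXO1 and NDC1 (0.998 each). CDC25B and CDC25C were close to each other (0.993), with CIT and CKS1B (0.994 each) nearest to CDC25B and NDC80 (0.993) to CDC25C. CDC25A was nearest to DIAPH1 (0.997) and HSP90AA1 (0.996) and farthest from PLK1 (0.729), the lowest value among the 9. BORA was nearest to STRN (0.996) and SKA1 (0.993).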

How the data were processed

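Per the submitters' processing notes, cutadapt 4.8, FastQC 0.12.1, MultiQC 1.7, STAR 2.7.11a, featureCounts 2.0.6 and build GRCh38.p13 were used; parameters and the strand setting are not given in the sources used here. For each line the authors deposited gene-level counts, not normalized, in 1 table and FPKM values in another; the FPKM equal the counts scaled by feature length and library total within 0.00051 for every value. No column of any other sample was used (0 such columns). Members and gene lists were chosen with earlier results of these data known.

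Counts were tested in R 4.3.3 with edgeR 4.0.16: filterByExpr (minimum count 10, total 15), TMM factors, and a quasi-likelihood F test of VE-822 against DMSO in each line alone, with Benjamini-Hochberg adjustment over all genes tested and a call at adjusted p under 0.05. The difference between lines was the interaction in 1 joint fit of all 12 libraries. Standard errors come from the F statistic. Intervals are 95%. CPM uses TMM factors; a pseudocount of 1 was used where stated. Per library, ratios were taken from FPKM. The fits were tested on simulated counts.

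Genes outside the 9 could be named by rule: in each line and list, the called genes with the lowest adjusted p, 4 at most, of which the text gives a part, picked with their values known; and CDK1, CCNB1, ENSA, ARPP19, CHEK1, FOXM1, MYBL2, CDKN1A, PLK4, AURKB, MKI67 and CDT1 whatever their values; for likeness, the 2 genes with the highest correlation among those with a mean of at least 5 CPM in each line. Alternatives were RLE factors, library size alone, no filter, a mean of at least 5 CPM, DESeq2 1.42.0, limma 3.58.1 on log2(FPKM + 1), the joint fit, a replicate block, and each library left out. Promoter sequences are RefSeq's, build GRCh38.p14.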

Additional observations from a re-analysis of the deposited data

Results flagged for a closer look

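Each gene below responded differently in the lines, by the interaction test over all 12 libraries (edgeR's quasi-likelihood test, Benjamini-Hochberg adjusted p under 0.05). Values are the 92.1 response minus the MP38 response on the log2 scale. Dose and line cannot be told apart.

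Among the 9 genes the inhibitors WEE1 and PKMYT1 stood at -1.71 and -2.59. The phosphatases CDC25A, CDC25B and CDC25C stood at -1.83, -1.65 and -3.45. PLK1, AURKA and BORA stood at -3.20, -2.87 and -1.90, and MASTL at -2.12.

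In the CDK1 complex CDK1 was at -3.24, CCNB1 at -2.72, CCNB2 at -3.10 and CKS2 at -2.67. Around PLK1 and AURKA, KIF20A was at -3.65, AURKB at -3.50, PLK4 at -3.39 and TPX2 at -3.21. MKI67, the marker of cycling cells, was at -3.39, and CDT1, the replication licensing factor, at -1.95. Of the transcription regulators MYBL2 was at -3.03, FOXM1 at -2.61, RBL1 at -1.40 and LIN54 at -1.30. Of the checkpoint and 14-3-3 genes CHEK1 was at -2.20, TOPBP1 at -1.14 and YWHAZ at -1.002. The ubiquitin ligase genes CDC20 and CCNF were at -2.64 and -2.09. Downstream of MASTL, ENSA was at -0.69, PPP2CA at -0.55 and ARPP19 at -0.45.

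In 6 genes the 92.1 response was the higher one. They were CDKN1A (2.74), PPP2R2B (2.52), PLK2 (1.39), PLK3 (0.92), BTRC (0.33) and ATR (0.26). PPP2R2B was too low for the test in 92.1 alone, with 11 to 19 counts a library with VE-822 and 4 to 10 with DMSO, and entered the joint fit through MP38, where it had 173 to 186 counts with VE-822 and 473 to 532 with DMSO, so its value is a description and supports no difference between lines. The call for ATR was lost in 7 of 12 fits without 1 library, at 0.16 to 0.21.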

How the results depend on the processing

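In 92.1 and for the difference between lines, all 9 genes kept their direction and their call under every alternative run (126 and 162 values). In MP38, 119 of 126 values did; the exceptions were CDC25A, called in 2 alternatives, and MASTL, whose call was lost in 5, and 7 to 9 of the 9 genes were called. The lists' counts stayed within 1.5 times throughout. Of the other named genes' values, 371 of 378 in 92.1, 391 of 391 in MP38 and 496 of 503 for the difference kept their call and none changed direction where called; the exceptions were ENSA with a mean of at least 5 CPM (adjusted p = 0.117), ARPP19 with limma on log2(FPKM + 1) (0.0605), and those given above for ENSA, ARPP19, BTRC and ATR. With a replicate block, 9 genes were called lower in 92.1 and 8 higher in MP38, and no call of the 9 changed. Same-numbered libraries deviated together only weakly (r of 0.088 to 0.111 in 92.1, each library closest to its own number, and of -0.102 to -0.018 in MP38), so the numbers were not taken to pair the samples.

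The inhibitor index moved most. In 92.1 (-0.14) it was -0.0779 with the median of the activators' levels, 0.16 with WEE1 alone, -0.45 with PKMYT1 alone, -0.0677 without CDC25B, -0.28 without CDC25C and -0.0646 without BORA. With that median the index set the inhibitors of 92.1 against MASTL with VE-822, and against AURKA or MASTL with DMSO. In MP38 (-0.42) it was 0.20 with the median of the activators' levels, which is MASTL alone in every library, -0.38 with the median of their changes (chosen after seeing the data), -0.37 on log2(FPKM + 1), -0.56 with WEE1 alone and -0.29 with PKMYT1 alone, and -0.53 without CDC25A, -0.48 without CDC25B, -0.29 without PLK1, -0.32 without AURKA and -0.53 without MASTL. All but the FPKM value follow from which genes enter the index and how they are averaged. Library scaling and feature length cancel in this difference, so the FPKM value departs through the added 1. Leaving out 1 library gave -0.20 to -0.12 in 92.1 and -0.45 to -0.40 in MP38.

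With library size as the only scaling, 5684 genes were called higher and 3534 lower in 92.1, against 4658 and 4498 with TMM. Without the third DMSO library of 92.1 the counts were 6377 and 6899. Counts of 283 to 369 limit the precision of CDC25C with VE-822 in 92.1.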
